A study of Homo sapiens with 18 samples.

Results

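The genes described here are 40 genes of DNA replication and S phase, out of 36204 gene names measured on the array. They were found by name: every spot of the array that is not a control and that carries one of the 40 names was taken, which gave 51 probes and 87 spots per array. All 51 probes were well above background on all 18 arrays, so no gene was lost to a filter on low values. Cells copy their DNA once per cycle. In G1, origins are licensed when the ORC complex, CDC6 and CDT1 load the ring of MCM2 to MCM7. At the start of S phase, MCM10, CDC45 and the GINS complex turn that ring into an active helicase, the polymerases alpha, delta and epsilon extend the new strands with the PCNA clamp and its loader RFC, and FEN1 and LIG1 close the lagging strand. Transcription of many of these genes is switched on by the E2F factors, which is why the list is widely used as a sign of proliferating cells.

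Total RNA was measured on 18 one-colour arrays. HT29 is a colorectal adenocarcinoma cell line that is sensitive to oxaliplatin (OXA, a platinum drug that damages DNA), and HTOXAR3 is its resistant descendant, made by growing HT29 in rising doses of OXA. Each line was left untreated, treated for 24 h with OXA, or treated for 24 h with OXA plus 10 μM Curcumin, with 3 biological replicates in each of the 6 groups. The OXA dose was the IC50 of each line, 10 μM for HT29 and 30 μM for HTOXAR3, so a comparison of treated lines is also one of doses. Curcumin was never given alone on these arrays, and there is 1 resistant subline, so that what is particular to resistance and what is particular to HTOXAR3 cannot be told apart. These are whole cultures: fewer cells in S phase and less RNA per cell cannot be told apart either.

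The 6 groups were spread over 3 slides. Slide 1 held only replicate 1 of untreated HT29 and of HT29 after OXA, and slides 2 and 3 each held arrays of all 6 groups. Between 52.4% and 63.6% of the spots that measure transcripts were well above background, the lowest share being that of untreated HTOXAR3 replicate 2. Of 12 markers of colorectal epithelium, 9 were well above background on all 18 arrays, among them *EPCAM* at a log2 level of 16.18 to 16.64 and the keratin gene *KRT19* at 17.67 to 18.18. *CDX2* passed on 10 arrays, *CEACAM5* on 16 and *GPA33* on 9. Of the markers of other cell types, 0 of 6 for stroma, 2 of 4 for endothelium and 5 of 6 for leukocytes were well above background on all arrays. The stromal markers *COL1A2* and *COL3A1* were so on 0 arrays, and *PTPRC*, the leukocyte common antigen, stood at a log2 level of 5.96 to 6.51, while *CD68* stood at 6.49 to 8.37 and *CD14* at 10.19 to 11.52. Each list's summed level is given only to show its range over the arrays, since the lists hold different probes and cannot be set against each other. Its log2 ran from 19.49 to 19.75 for the epithelial list, from 6.26 to 7.54 for stroma, from 8.08 to 8.80 for endothelium and from 10.65 to 11.67 for leukocytes. The part of such markers in the results below was not tested.

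Several of the genes share sequence features in front of their start sites. Among the 34 genes with a promoter in the RefSeq table, 20 (58.8%) hold at least 1 of the letters TTTGGCGC, TTTCGCGC, TTTGCCGC or TTTCCCGC on either strand within 250 bases before to 50 bases after a start, against 3.99% of 27305 symbols and 5.4% of 15843 protein-coding symbols. These letters are forms of the site that E2F factors bind. The box CCAAT was in 21 of the 34 (61.8%, against 39.7% of all symbols), while TTTGAA, a short form of the CHR element known from genes of mitosis, was in 1 of the 34 (2.94%, against 18.2%). *MCM4*, *MCM5*, *GINS4*, *POLD3*, *RPA2* and *RPA3* have no entry in that table. A match is a description of letters, not a site shown to be used. The 250 bases before the start are printed for 4 of the genes that hold such letters and were called lower in at least 4 of the comparisons below, and for *POLD1* and *FEN1*, which hold none in these windows and which moved in opposite directions after OXA. The build is GRCh38.p14, each run reads 5′ to 3′ in the direction of the gene, and capitals mark the E2F letters.
MCM6, chr2:135876444-135876693, minus strand: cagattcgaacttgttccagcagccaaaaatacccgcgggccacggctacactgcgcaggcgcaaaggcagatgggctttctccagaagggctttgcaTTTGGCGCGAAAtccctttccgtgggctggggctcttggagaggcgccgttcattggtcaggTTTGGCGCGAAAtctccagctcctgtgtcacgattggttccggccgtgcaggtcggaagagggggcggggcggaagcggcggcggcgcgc
MCM7, chr7:100101398-100101647, minus strand: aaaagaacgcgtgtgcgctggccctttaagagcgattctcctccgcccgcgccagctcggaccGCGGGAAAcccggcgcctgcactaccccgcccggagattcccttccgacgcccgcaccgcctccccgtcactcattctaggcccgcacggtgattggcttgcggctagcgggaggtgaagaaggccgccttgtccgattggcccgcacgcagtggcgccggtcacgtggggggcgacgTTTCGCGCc
GINS2, chr16:85688955-85689204, minus strand: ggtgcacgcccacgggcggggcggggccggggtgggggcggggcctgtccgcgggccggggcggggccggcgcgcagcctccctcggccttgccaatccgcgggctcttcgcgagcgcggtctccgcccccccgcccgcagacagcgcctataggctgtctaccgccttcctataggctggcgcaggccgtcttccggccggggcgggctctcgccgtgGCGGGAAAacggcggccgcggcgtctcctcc
POLA1, chrX:24693668-24693917, plus strand: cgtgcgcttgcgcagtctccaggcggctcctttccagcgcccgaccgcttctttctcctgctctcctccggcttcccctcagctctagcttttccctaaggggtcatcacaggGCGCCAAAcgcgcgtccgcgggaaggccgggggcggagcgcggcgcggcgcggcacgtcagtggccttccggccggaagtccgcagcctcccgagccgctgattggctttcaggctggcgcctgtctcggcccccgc
POLD1, chr19:50384073-50384322, plus strand: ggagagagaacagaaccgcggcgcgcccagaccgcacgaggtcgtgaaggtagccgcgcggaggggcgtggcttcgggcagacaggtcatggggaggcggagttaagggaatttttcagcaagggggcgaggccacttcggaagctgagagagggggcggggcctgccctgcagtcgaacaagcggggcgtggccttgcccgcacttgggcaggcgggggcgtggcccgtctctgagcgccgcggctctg
FEN1, chr11:61792661-61792910, plus strand: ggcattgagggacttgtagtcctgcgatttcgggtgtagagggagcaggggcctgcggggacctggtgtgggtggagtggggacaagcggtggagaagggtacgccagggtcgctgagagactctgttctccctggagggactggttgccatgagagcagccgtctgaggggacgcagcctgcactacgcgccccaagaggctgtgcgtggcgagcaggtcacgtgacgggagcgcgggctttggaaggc
In *MCM6*, the matches begin at -152, -148, -90 and -86 from the start and form 2 pairs, each of overlapping letters. *MCM7* has 3 starts in the table, and only the one printed holds the letters, at -187 and -9. *GINS2* has 1 match at -31 and *POLA1* 1 at -137. The other start of *POLD1* holds none either.

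Levels are given as log2 of the normalised intensity of a probe, which can be compared between arrays for one gene but not between genes. A gene was called at a limma p-value under 0.05 after Benjamini-Yekutieli (BY) adjustment over all gene names, provided that the levels differed by a fold of more than 1.2. Of the 40 genes, 32 were called in at least 1 of the 7 comparisons of 2 groups. *GINS1*, *GINS4*, *ORC1*, *POLE*, *PRIM2*, *RPA3*, *RRM1* and *UHRF1* were called in none. SEs of the log2 differences lay between 0.05 and 0.13 for 39 of the genes; the exception, *GINS1*, is described further on.

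**Figure D1:**
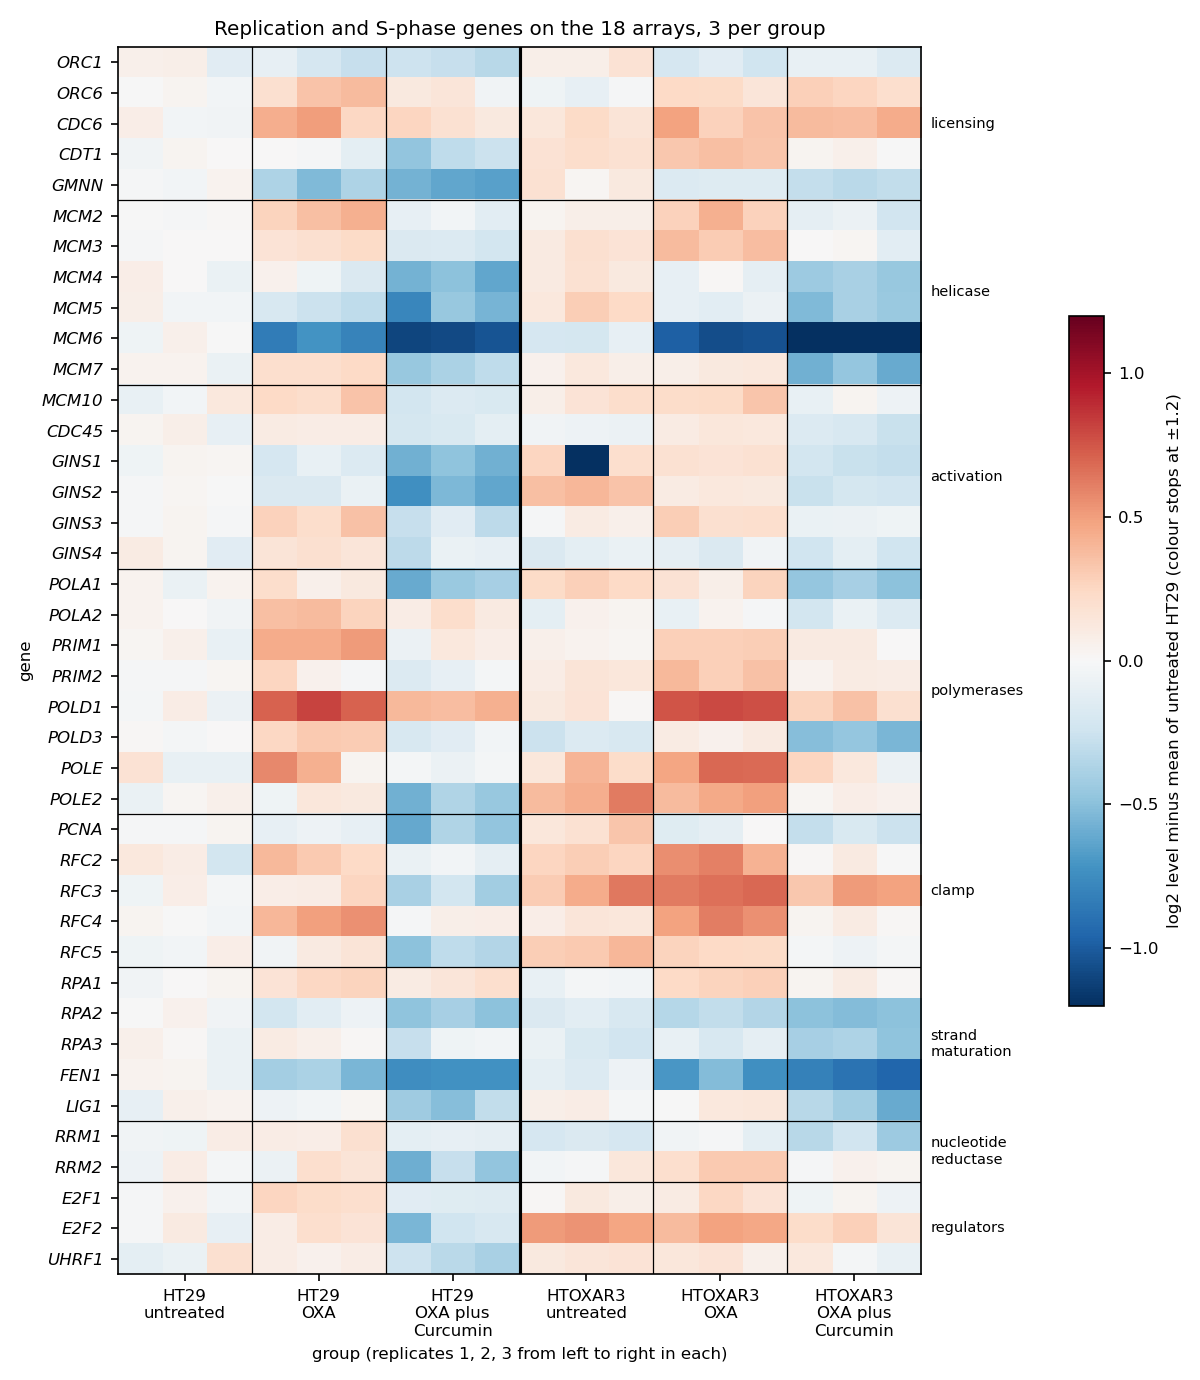
Log2 level of each of the 40 genes (rows, ordered by role) on each of the 18 arrays (columns, 3 per group), minus the gene's mean in untreated HT29; blue is lower, red is higher and the colour stops at ±1.2. *MCM6* and *FEN1* are blue in all 4 treated groups, *POLD1* is red in them, and most rows turn from red or white to blue between OXA and OXA plus Curcumin in HT29; the single dark cell of *GINS1* is untreated HTOXAR3 replicate 2.

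The first comparison asks how the resistant line differs before any treatment. Here untreated HTOXAR3 exceeded untreated HT29 in 5 of the 40 genes (12.5%) and lay below it in 0. Over all gene names, 11.5% were called in this comparison, 6.26% higher and 5.28% lower in HTOXAR3. The 5 genes were *E2F2*, a transcription factor of the S-phase program (log2 difference 0.51 ± 0.09, SE), *POLE2*, the second subunit of polymerase epsilon (0.48 ± 0.08), the clamp loader subunits *RFC3* (0.46 ± 0.09) and *RFC5* (0.34 ± 0.07), and *GINS2* of the helicase complex (0.37 ± 0.05). The median difference of the 40 genes was 0.10, beside -0.03 for all names. With the arrays scaled to their 75th percentile, the median of all names was 0.07 from the processed intensity and 0.06 from normexp values, and the median of the 40 genes was then only 0.02 and 0.04 above it. It was 0.06 within slide 2 and 0.12 within slide 3.

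*E2F2* stood at 11.72, 11.84 and 11.63 in replicates 1 to 3 of untreated HT29 and at 12.24, 12.27 and 12.20 in untreated HTOXAR3. The groups did not overlap, and the fold was 1.42 (BY adjusted p = 0.0066). For *POLE2* the levels were 10.06, 10.16 and 10.21 in untreated HT29 and 10.52, 10.58 and 10.77 in untreated HTOXAR3, again without overlap (1.40-fold, BY adjusted p = 0.006). *PCNA*, *MCM2* and *E2F1*, often read as signs of proliferation, were not called. *PCNA*, the sliding clamp, stood at 14.57, 14.57 and 14.62 in untreated HT29 and at 14.72, 14.78 and 14.92 in untreated HTOXAR3, a difference of 0.22 ± 0.07 that did not pass (BY adjusted p = 0.56). *MCM2* differed by 0.06 ± 0.06 and *E2F1* by 0.07 ± 0.05, neither of which passed. With every array left out in turn, *E2F2*, *POLE2* and *GINS2* kept their calls, while *RFC3* and *RFC5* did not. The count of 5 fell to 3 without replicate 1 of untreated HT29, and to 3 without replicate 2 or without replicate 3 of untreated HTOXAR3. It was 0 when only the 6 arrays compared were fitted, where 1258 of all names were called in place of 4177.

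OXA alone moved single genes in opposite directions and did not lower the list as a whole. In HT29, 9 of the 40 genes (22.5%) rose and 3 (7.5%) fell, with a median difference of 0.12. These 12 calls were 7 without untreated HT29 replicate 2. Over all names, 15.9% were called, 8.33% higher and 7.62% lower. In HTOXAR3, 4 genes (10%) rose and 2 (5%) fell, with a median of 0.11, beside 10.2% of all names called, 5.31% higher and 4.94% lower. With a normexp offset of 50 the split in HTOXAR3 was 5 higher and 5 lower. When only the 6 arrays compared were fitted, 2 genes were called in HT29 and 1 in HTOXAR3. Of all names, 1338 and 592 were then called, in place of 5774 and 3709. The polymerase subunits were the group with most rises: 4 of 8 in HT29 (*POLD1*, *PRIM1*, *POLA2* and *POLD3*) and 2 of 8 in HTOXAR3 (*POLD1* and *POLD3*). The median of the 40 was 0.13 and 0.15 within slides 2 and 3 in HT29, and 0.08 within either slide in HTOXAR3.

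The catalytic subunit of polymerase delta, *POLD1*, had the largest rise. Its level was 13.61, 13.72 and 13.56 in untreated HT29 and 14.34, 14.44 and 14.34 after OXA. In HTOXAR3 it was 13.74, 13.79 and 13.64 untreated and 14.38, 14.42 and 14.40 after OXA. In each line the groups were clearly separate, with log2 differences of 0.75 ± 0.06 (1.68-fold, BY adjusted p = 7.5e-06) and 0.68 ± 0.06 (1.60-fold, 4.8e-05). *RFC4*, a subunit of the clamp loader, stood at 13.38, 13.34 and 13.31 in untreated HT29 and at 13.74, 13.83 and 13.90 after OXA. In HTOXAR3 its levels were 13.42, 13.49 and 13.48 untreated and 13.82, 13.96 and 13.89 after OXA. It rose by 0.48 ± 0.06 in HT29 (BY adjusted p = 0.00025) and by 0.43 ± 0.06 in HTOXAR3 (0.0014), with no overlap. *POLD3*, the accessory subunit of polymerase delta, rose by 0.29 ± 0.05 in each line, but neither call was kept with every array left out in turn.

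The other rises were called in 1 line only. In HT29 they were *PRIM1*, the catalytic primase subunit (0.47 ± 0.06), the loading factor *CDC6* (0.40 ± 0.08), *MCM2* of the helicase ring (0.35 ± 0.06), *POLA2* of polymerase alpha (0.34 ± 0.07), *ORC6* of the origin complex (0.31 ± 0.07) and *GINS3* (0.28 ± 0.06, not called with a replicate block). In HTOXAR3 the same genes differed by 0.25, 0.19, 0.27, -0.01, 0.26 and 0.18, none of which passed. *MCM2* itself was at 14.03, 14.03 and 14.05 in untreated HT29 and 14.31, 14.40 and 14.46 after OXA. In HTOXAR3 it was at 14.07, 14.11 and 14.10 untreated and 14.32, 14.46 and 14.31 after OXA, so the groups did not overlap in either line although the call passed only in HT29 (BY adjusted p = 0.0074, against 0.076 in HTOXAR3). *ORC6* was at 10.77, 10.81 and 10.74 in untreated HT29 and at 10.97, 11.12 and 11.15 after OXA. Its call was lost when any of these arrays other than OXA replicate 1 was left out. The calls of *CDC6*, *POLA2* and *GINS3* in HT29 were also not kept with every array left out in turn. *RPA1*, the large subunit of the factor that coats single-stranded DNA, was called in HTOXAR3 (0.32 ± 0.05) and stood at 0.22 ± 0.05 in HT29. Its direction is uncertain, since a second probe fell in both lines and the call in HTOXAR3 turns to -0.34 when the probes are averaged.

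Set against these rises, *MCM6* fell by far more than any other subunit of the same ring. Its probe lies at chr2:136598217-136598276 (GRCh37, minus strand). The levels were 13.19, 13.31 and 13.24 in untreated HT29 and 12.40, 12.53 and 12.45 after OXA. In HTOXAR3 they were 13.05, 13.04 and 13.15 untreated and 12.27, 12.18 and 12.20 after OXA. The fall was -0.79 ± 0.06 in HT29 (1.72-fold, BY adjusted p = 2.4e-06) and -0.86 ± 0.06 in HTOXAR3 (1.82-fold, 3.4e-06). The ring is built from 1 copy each of MCM2 to MCM7. By the probes used, the other subunits ranged from -0.25 (*MCM5*) to 0.35 (*MCM2*) in HT29 and from -0.31 (*MCM5*) to 0.27 (*MCM2*) in HTOXAR3. The second probe of *MCM5* fell further, at -0.34 in HT29 and -0.45 in HTOXAR3. That of *MCM7* stood at -0.12 and -0.18, where the probe used stood at 0.21 and 0.02.

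*FEN1*, the flap endonuclease that trims Okazaki fragments, fell in both lines as well. It stood at 11.91, 11.90 and 11.79 in untreated HT29 and 11.46, 11.48 and 11.31 after OXA. In HTOXAR3 the levels were 11.75, 11.70 and 11.81 untreated and 11.17, 11.35 and 11.13 after OXA. The differences were -0.45 ± 0.07 (BY adjusted p = 0.0024) and -0.54 ± 0.07 (0.00095), without overlap. *GMNN*, which encodes geminin, the inhibitor of CDT1 that blocks a second round of licensing, fell in HT29 (-0.42 ± 0.06, BY adjusted p = 0.00089) and differed by -0.26 ± 0.06 in HTOXAR3 (0.058). *PCNA* was 14.49, 14.53 and 14.49 after OXA in HT29 and 14.45, 14.49 and 14.60 in HTOXAR3, differing from the untreated level by -0.09 ± 0.07 and -0.30 ± 0.07. Neither passed, although no array of an OXA group reached the lowest untreated array of its line.

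**Figure D2:**
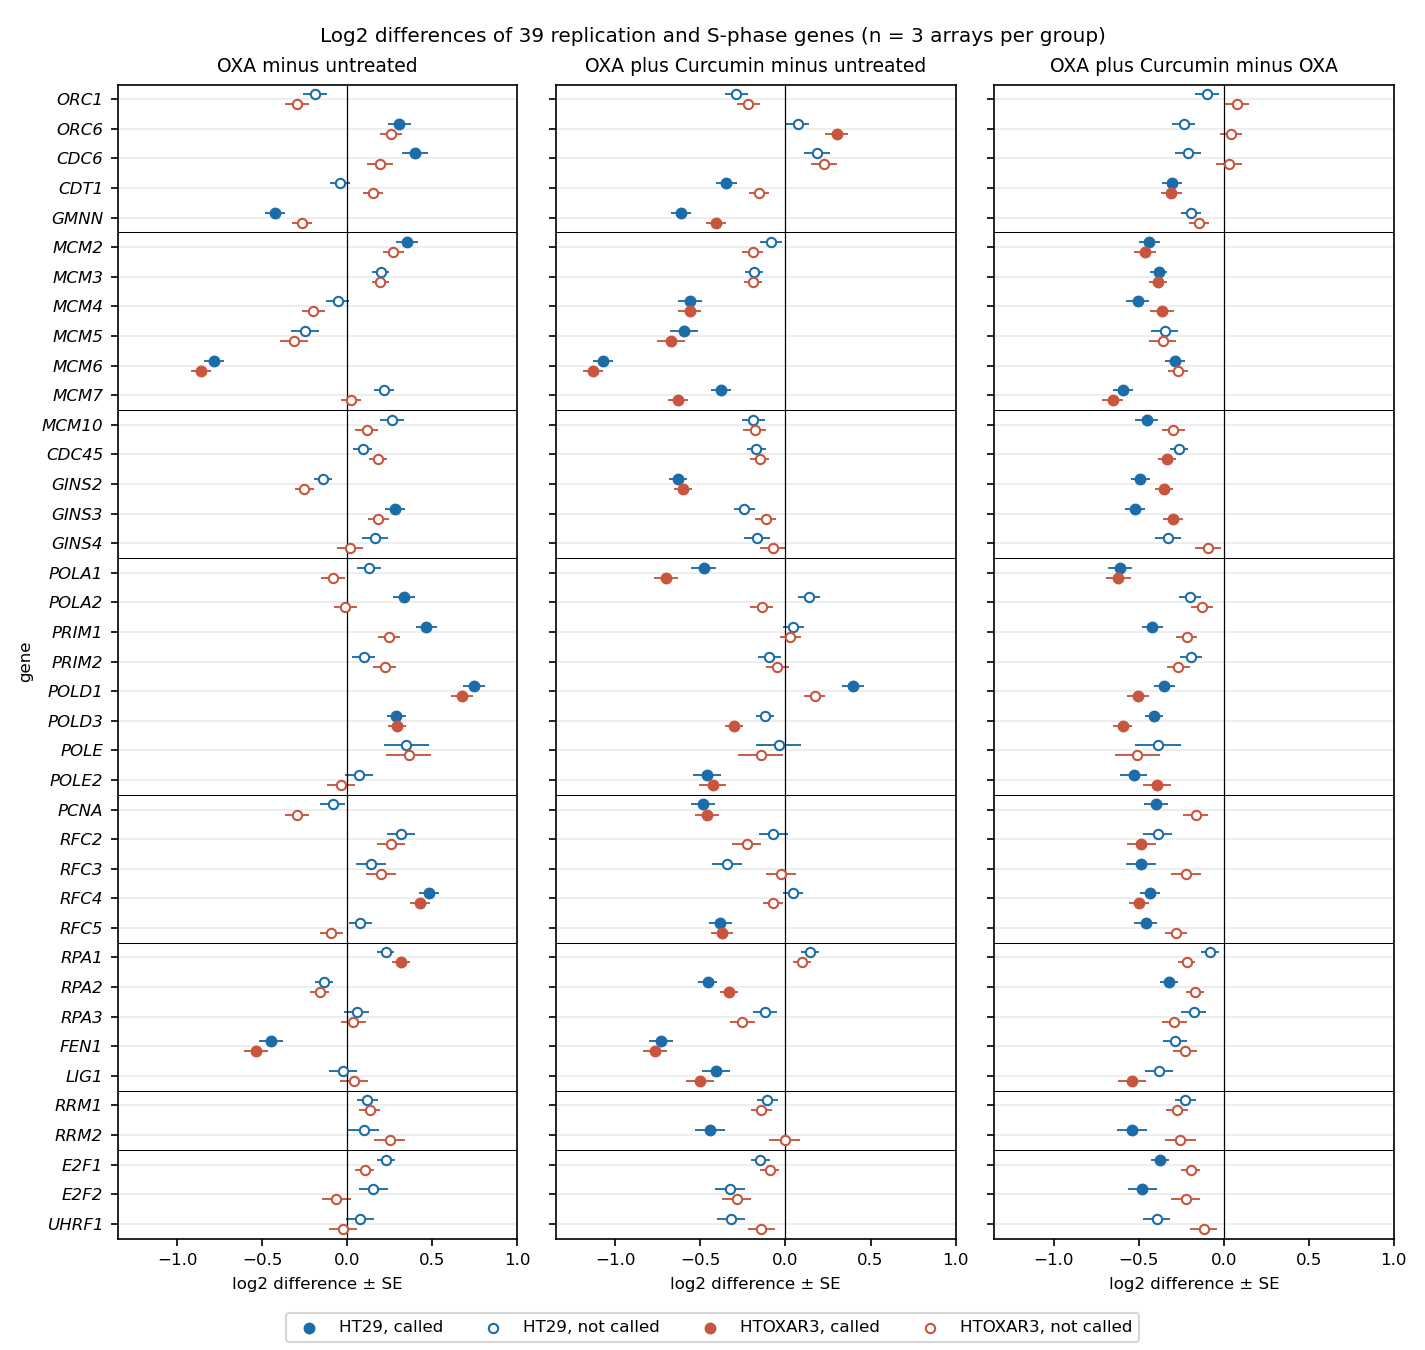
Log2 difference (points) ± SE (lines) of 39 of the genes for OXA against untreated (left), OXA plus Curcumin against untreated (middle) and OXA plus Curcumin against OXA (right), in HT29 (blue) and HTOXAR3 (red); filled points were called, open points were not, and *GINS1* is left out because 1 array sets its values. In the left panel points lie on both sides of 0, with *MCM6* near -0.8 and *POLD1* near 0.7, whereas in the right panel nearly all lie below 0.

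After OXA plus Curcumin the balance was the other way. In HT29, 15 of the 40 genes (37.5%) were lower than in untreated cells and 1 was higher, with a median difference of -0.26, or -0.25 and -0.22 within slides 2 and 3. In HTOXAR3, 14 (35%) were lower and 1 was higher, with a median of -0.19, or -0.16 and -0.22 within the slides. Over all names, 18.6% were called in HT29, 9.56% higher and 9.02% lower, and 17.5% in HTOXAR3, 8.82% higher and 8.64% lower. Of the genes called, 13 fell in both lines: *FEN1*, *GINS2*, *GMNN*, *LIG1*, *MCM4*, *MCM5*, *MCM6*, *MCM7*, *PCNA*, *POLA1*, *POLE2*, *RFC5* and *RPA2*. That is 81.2% of the 16 called in HT29 and 86.7% of the 15 called in HTOXAR3. Scaling each array to its 75th percentile, in place of quantile normalization, moved the median of all names to -0.17 in HTOXAR3, and relative to it the median of the 40 genes was -0.02, with 13 of them still lower. In HT29 the relative median was -0.16. When only the 6 arrays compared were fitted, 3 genes were called in HT29 and 7 in HTOXAR3. Of all names, 2056 and 3013 were then called, in place of 6724 and 6322. The helicase ring had most falls for its size, 4 of 6 subunits in each line.

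*MCM6* again had the largest fall, to 12.14, 12.17 and 12.21 in HT29 and to 11.89, 12.01 and 11.94 in HTOXAR3. These levels were 2.10-fold and 2.19-fold below those of untreated cells (-1.07 ± 0.06, BY adjusted p = 1e-07, and -1.13 ± 0.06, 9e-08), and it was the only one of the 40 that passed a fold of 2 in any comparison. *FEN1* stood at 11.12, 11.14 and 11.14 in HT29 and at 11.05, 10.98 and 10.92 in HTOXAR3, which is -0.73 ± 0.07 and -0.77 ± 0.07 from the untreated level. Among the other subunits of the ring, *MCM5* fell by 0.60 ± 0.08 and 0.67 ± 0.08, *MCM4* by 0.56 ± 0.07 in each line and *MCM7* by 0.38 ± 0.06 and 0.63 ± 0.06. *MCM2*, which had risen after OXA in HT29, was at 13.94, 14.00 and 13.91 in HT29 and at 13.93, 13.97 and 13.81 in HTOXAR3. It thus lay -0.09 ± 0.06 and -0.19 ± 0.06 from the untreated level, and neither difference passed.

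Of the other groups, *GINS2* fell by 0.63 ± 0.05 and 0.60 ± 0.05, *GMNN* by 0.61 ± 0.06 and 0.41 ± 0.06, and *LIG1*, the ligase that seals the lagging strand, by 0.41 ± 0.08 and 0.50 ± 0.08 in HT29 and HTOXAR3. *POLA1*, the catalytic subunit of polymerase alpha, was at 11.43, 11.31 and 11.43 in untreated HT29 and 10.79, 10.95 and 10.99 after the combination. In HTOXAR3 it was at 11.62, 11.68 and 11.63 untreated and 10.93, 11.00 and 10.91 after it. The differences were -0.48 ± 0.07 (BY adjusted p = 0.0013) and -0.70 ± 0.07 (4.3e-05), with no overlap. *PCNA* reached 13.98, 14.23 and 14.12 in HT29 and 14.30, 14.41 and 14.33 in HTOXAR3. Its falls of 0.48 ± 0.07 and 0.46 ± 0.07 passed in each line (BY adjusted p = 0.0013 and 0.0022), and all treated arrays lay below all untreated ones. *RRM2*, the regulated subunit of ribonucleotide reductase, fell in HT29 (-0.44 ± 0.09) and stood at -0.01 ± 0.09 in HTOXAR3, while *CDT1* fell in HT29 (-0.35 ± 0.06) and *POLD3* in HTOXAR3 (-0.30 ± 0.05).

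A rise against untreated cells was called for 1 gene in each line. In HT29, *POLD1* stayed above its untreated level at 14.02, 14.00 and 14.06 (0.40 ± 0.06, BY adjusted p = 0.0023). In HTOXAR3 it was at 13.89, 13.98 and 13.82, and its difference of 0.17 ± 0.06 did not pass. The gene called higher in HTOXAR3 was *ORC6*, with 10.72, 10.67 and 10.76 untreated and 11.06, 11.03 and 10.97 after the combination (0.30 ± 0.07, BY adjusted p = 0.032). That call was lost whichever of these 6 arrays was left out. In HT29 *ORC6* was at 10.89, 10.92 and 10.73 after the combination, which overlapped the untreated arrays.

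The third comparison isolates what was added by Curcumin, as OXA plus Curcumin against OXA at the same OXA dose. In HT29, 22 of the 40 genes (55%) fell and 0 rose, and all 40 had a difference below 0. Over all names, 5.53% were called, 3.14% higher and 2.39% lower, and 53.5% had a difference below 0. In HTOXAR3, 15 genes (37.5%) fell and 0 rose, and 37 of the 40 were below 0, beside 8.83% of all names called, 4.43% higher and 4.41% lower, and 53.4% below 0. *CDC6*, *ORC1* and *ORC6*, all of licensing, were the 3 above 0, at 0.03 to 0.08. The median difference was -0.38 in HT29, with -0.39 and -0.36 within slides 2 and 3, and -0.28 in HTOXAR3, with -0.30 and -0.28. The count of 22 in HT29 was 14 without OXA plus Curcumin replicate 1 and 14 without OXA replicate 2, and that of 15 in HTOXAR3 was 9 without OXA plus Curcumin replicate 3. Both were 0 when only the 6 arrays compared were fitted. Of all names, 16 in HT29 (0 lower) and 223 in HTOXAR3 (43 lower) were then called, in place of 2002 and 3198. Relative to all names, the median in HTOXAR3 was -0.26, and -0.15 with normexp values scaled to the 75th percentile. This comparison shares its OXA arrays with the comparison of OXA against untreated, and the values of both are not independent.

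*CDT1*, *GINS2*, *GINS3*, *MCM2*, *MCM3*, *MCM4*, *MCM7*, *POLA1*, *POLD1*, *POLD3*, *POLE2* and *RFC4* fell in both lines. *GINS3* was not called in HTOXAR3 with a replicate block. These 12 are 54.5% of the genes called in HT29 and 80% of those called in HTOXAR3. The fall of *POLD1* in HT29 (-0.35 ± 0.06) was lost whichever array of the 6 was left out, and that in HTOXAR3 was -0.50 ± 0.06. The largest falls were those of *POLA1* and *MCM7*. *POLA1* was at 11.60, 11.45 and 11.51 after OXA in HT29 and 11.56, 11.46 and 11.66 in HTOXAR3, and every array with Curcumin lay below all of these. The differences were -0.61 ± 0.07 (1.53-fold, BY adjusted p = 0.00078) in HT29 and -0.62 ± 0.07 (1.54-fold, 0.00044) in HTOXAR3. *MCM7* was at 17.31, 17.31 and 17.35 after OXA in HT29 and at 16.66, 16.73 and 16.81 with Curcumin added. In HTOXAR3 it went from 17.19, 17.23 and 17.24 to 16.53, 16.65 and 16.50. These falls of 0.59 ± 0.06 (BY adjusted p = 0.00021) and 0.65 ± 0.06 (5.8e-05) are of a gene that OXA alone had not changed past the threshold in either line (0.21 ± 0.06 and 0.02 ± 0.06).

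By role, the helicase ring had 5 of 6 subunits called lower in HT29 and 4 of 6 in HTOXAR3. The polymerases had 5 of 8 and 4 of 8, the clamp and its loader 4 of 5 and 2 of 5, the activation factors 3 of 6 and 3 of 6, licensing 1 of 5 and 1 of 5, strand maturation 1 of 5 and 1 of 5, the nucleotide reductase 1 of 2 and 0 of 2, and the regulators 2 of 3 and 0 of 3. *MCM2* differed by -0.44 ± 0.06 and -0.46 ± 0.06 and *RFC4* by -0.43 ± 0.06 and -0.50 ± 0.06. With Curcumin added, *RFC4* was at 13.33, 13.41 and 13.43 in HT29 and 13.38, 13.44 and 13.36 in HTOXAR3, levels that overlapped those of untreated cells in each line. *POLE2* went from 10.09, 10.28 and 10.27 to 9.57, 9.79 and 9.69 in HT29 and from 10.52, 10.60 and 10.64 to 10.17, 10.23 and 10.20 in HTOXAR3. These falls of 0.53 ± 0.08 and 0.39 ± 0.08 were called, but the call in HTOXAR3 was lost whichever of the 6 arrays compared was left out.

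Of the regulators, *E2F1* and *E2F2* fell in HT29. *E2F1* was at 12.59, 12.66 and 12.57 untreated, 12.86, 12.83 and 12.81 after OXA and 12.47, 12.46 and 12.45 after OXA plus Curcumin. Its fall with Curcumin was -0.37 ± 0.05 (BY adjusted p = 0.0044). In HTOXAR3 the levels of *E2F1* were 12.62, 12.72 and 12.68 untreated, 12.70, 12.85 and 12.77 after OXA and 12.55, 12.64 and 12.55 after the combination, and the difference of -0.19 ± 0.05 did not pass. *E2F2* went from 11.82, 11.93 and 11.89 to 11.18, 11.49 and 11.54 in HT29 (-0.48 ± 0.09), a call lost when OXA plus Curcumin replicate 1 or any of the OXA arrays was left out. In HTOXAR3 it went from 12.11, 12.22 and 12.19 to 11.95, 12.01 and 11.88, and the difference of -0.22 ± 0.09 did not pass. *PCNA* fell in HT29 (-0.40 ± 0.07), a call lost when any of the arrays compared but OXA plus Curcumin replicate 2 was left out, and differed by -0.17 ± 0.07 in HTOXAR3. *MCM6*, already low after OXA, differed by a further -0.29 ± 0.06 in HT29 and -0.27 ± 0.06 in HTOXAR3, values on either side of the threshold (BY adjusted p just under it in HT29 and 0.053 in HTOXAR3). The call in HT29 was lost whichever of the 6 arrays was left out, with either scaling to the 75th percentile and with a slide or replicate block.

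**Figure D3:**
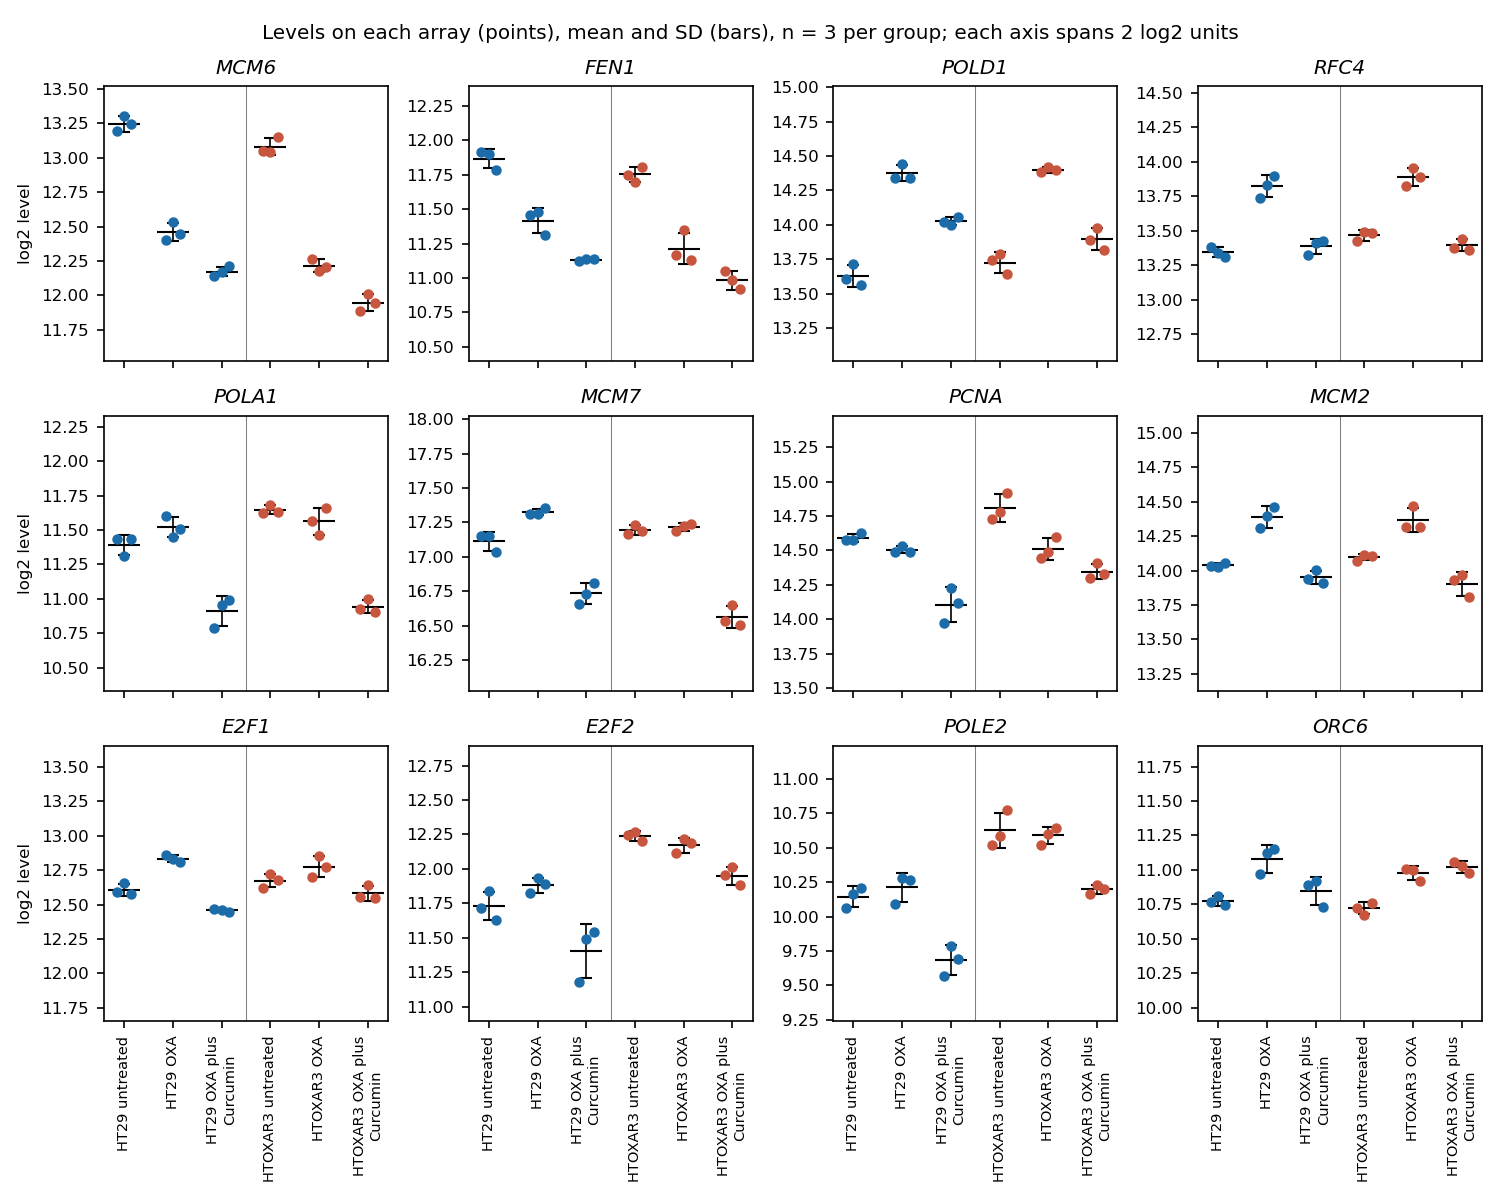
Log2 level of 12 genes on each array (points: HT29 blue, HTOXAR3 red) with the mean and SD of the 3 arrays of each group (black), each axis spanning 2 log2 units. *MCM6* and *FEN1* step down from untreated to OXA to the combination, *POLD1*, *RFC4* and *MCM2* stand higher after OXA than before or with Curcumin added, and *POLA1* and *MCM7* are lowest where Curcumin was added.

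Genes with and without the E2F letters can be set side by side. With Curcumin added in HT29, 13 of the 20 genes with the letters and 6 of the 14 without were called lower, with medians of -0.40 and -0.32. In HTOXAR3 it was 9 of 20 and 4 of 14, with medians of -0.30 and -0.27. After the combination, 9 of 20 with the letters and 3 of 14 without were lower in HT29, with medians of -0.35 and -0.10, and 8 of 20 and 2 of 14 in HTOXAR3, with medians of -0.19 and -0.11. Between untreated lines, 4 of 20 and 1 of 14 were higher in HTOXAR3. After OXA alone, 4 of 20 rose and 2 fell in HT29 among those with the letters, and 4 of 14 rose and 1 fell among those without. In HTOXAR3 0 of 20 rose and 1 fell with the letters, while 3 of 14 rose and 1 fell without. The shares over all names are those given above for each comparison, and the differences between genes with and without the letters were not tested.

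The lines were then compared in how they responded, as the interaction of line and treatment. No gene of the 40 was called for OXA, for OXA plus Curcumin or for the addition of Curcumin, with the BY method or with the Benjamini-Hochberg method in limma. At an unadjusted p below 0.05 there were 4, 10 and 10 of the 40 genes. Over all names there were 4944, 5202 and 3526 of 36203 (13.7%, 14.4% and 9.74%). Over all names, 1.01%, 0.856% and 0.135% were called with the BY method and 3%, 3.44% and 0.892% with the Benjamini-Hochberg method. The median interaction was -0.07, 0.01 and 0.05. Leaving out *GINS1*, values ranged from -0.35 ± 0.09 (*POLA2*) to 0.19 ± 0.08 (*CDT1*) for OXA, from -0.28 ± 0.09 (*POLA2*) to 0.44 ± 0.13 (*RRM2*) for the combination and from -0.19 ± 0.08 (*POLD3*) to 0.29 ± 0.13 (*RRM2*) for adding Curcumin. A call in 1 line and not in the other is therefore not shown to be a difference between the lines.

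*GINS1*, a subunit of the GINS complex, has 1 probe and 1 spot. Its level was 13.67, 13.75 and 13.74 in untreated HT29, 13.52, 13.64 and 13.55 after OXA and 13.14, 13.24 and 13.14 after the combination. In HTOXAR3 it was 13.98, 8.78 and 13.92 untreated, 13.91, 13.88 and 13.90 after OXA and 13.50, 13.46 and 13.44 after the combination. The mean intensity of the spot was 390 on the array of untreated HTOXAR3 replicate 2 and 9003 to 18097 on the other 17 arrays, and the spot carries no outlier flag. With all arrays the SE of each difference is 0.94 and nothing passed. Without that array, *GINS1* fell after OXA plus Curcumin in HTOXAR3 by 0.49 ± 0.06 (BY adjusted p = 0.00058), the difference between untreated lines changed from -1.49 ± 0.94 to 0.23 ± 0.06, and that of OXA in HTOXAR3 from 1.67 ± 0.94 to -0.06 ± 0.06. Neither of these differences passed, with that array or without it.

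*RPA1* has a second probe that ran the other way. The probe used (chr17:1801166-1801225, GRCh37) stood at 13.53, 13.58 and 13.60 in untreated HT29 and 13.73, 13.82 and 13.84 after OXA. The other probe (chr17:1802714-1802773), which is much dimmer, stood at 6.90, 7.01 and 7.12 untreated and 5.39, 5.67 and 5.74 after OXA. In HTOXAR3 the probe used went from 13.48, 13.54 and 13.53 to 13.81, 13.84 and 13.86, and the other from 7.31, 7.28 and 7.21 to 6.38, 6.22 and 6.19. The log2 difference in HT29 was 0.22 with the one probe and -1.41 with the other, and in HTOXAR3 the other probe fell below its untreated level without overlap. Which transcripts each probe reads was not determined here.

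**Figure D4:**
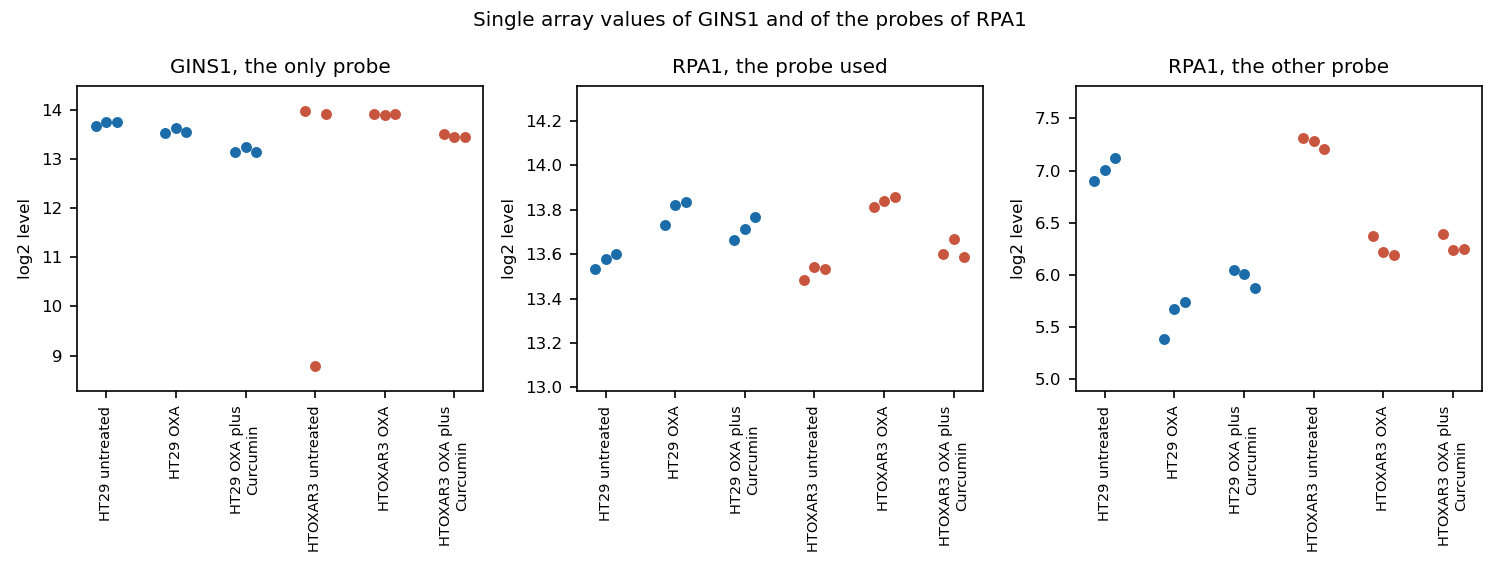
Log2 level on each array, by group (HT29 blue, HTOXAR3 red), of *GINS1* (left), of the probe used for *RPA1* (middle) and of its other probe (right); the axes differ. The 1 array of untreated HTOXAR3 at 8.78 stands apart from the others of *GINS1*, and the probes of *RPA1* move in opposite directions after OXA.

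A further list of 65 replication genes and a list of 25 genes of G2 and mitosis were counted in the same way. Of the 65 genes, after OXA 15 (23.1%) rose and 7 (10.8%) fell in HT29 and 8 (12.3%) rose and 5 (7.69%) fell in HTOXAR3. Over all names, 8.33% rose and 7.62% fell in HT29 and 5.31% and 4.94% in HTOXAR3. After the combination 4 (6.15%) rose and 18 (27.7%) fell in HT29 and 5 (7.69%) and 16 (24.6%) in HTOXAR3. Of all names, 9.56% and 9.02% did so in HT29 and 8.82% and 8.64% in HTOXAR3. With Curcumin added 1 (1.54%) rose and 21 (32.3%) fell in HT29 and 2 (3.08%) and 18 (27.7%) in HTOXAR3. The shares of all names were 3.14% and 2.39% in HT29 and 4.43% and 4.41% in HTOXAR3. Between untreated lines, 6 (9.23%) were higher and 4 (6.15%) lower in HTOXAR3, near the 6.26% and 5.28% of all names. *RNASEH2B*, a subunit of the nuclease that removes ribonucleotides from DNA, was higher by 0.76 ± 0.07 and *WDHD1*, which couples polymerase alpha to the helicase, by 0.39 ± 0.05. *DSCC1*, of the alternative clamp loader that acts in sister chromatid cohesion, was lower by 0.60 ± 0.07 and *ORC2*, of the origin complex, by 0.51 ± 0.07.

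Large changes among the 65 were seen in both directions. *POLD4*, the smallest subunit of polymerase delta, rose by 0.74 ± 0.05 and 0.65 ± 0.05 after OXA in HT29 and HTOXAR3, by 1.23 ± 0.05 and 0.97 ± 0.05 after the combination and by 0.49 ± 0.05 and 0.33 ± 0.05 with Curcumin added. *DUT*, the dUTPase, fell by 0.42 ± 0.05 and 0.45 ± 0.05 after OXA and by 0.96 ± 0.05 and 1.05 ± 0.05 after the combination. *E2F7*, a repressor of the E2F family, fell by 0.97 ± 0.09 and 0.53 ± 0.09 after OXA and by 1.16 ± 0.09 and 0.92 ± 0.09 after the combination. Of genes with a role at origins, *ORC4*, a subunit of the origin complex, rose by 0.57 ± 0.07 and 0.42 ± 0.07 after OXA and by 0.61 ± 0.07 and 0.49 ± 0.07 after the combination, and *LRWD1*, whose product binds that complex, by 0.50 ± 0.06 and 0.48 ± 0.06 after OXA. Other subunits of the complex were not called higher in both lines, with *ORC1* at -0.19 and -0.30, *ORC2* at 0.03 and 0.14, *ORC3* at 0.38 (called) and 0.15, *ORC5* at -0.06 and -0.18 and *ORC6* at 0.31 (called) and 0.26. *RNASEH2A*, the catalytic subunit of that nuclease, rose by 0.69 ± 0.07 and 0.45 ± 0.07 after OXA and fell by 0.50 ± 0.07 and 0.64 ± 0.07 with Curcumin added. In the same comparison *CDC7*, the kinase that fires origins, fell by 0.54 ± 0.06 and 0.56 ± 0.06, *CCNE2*, cyclin E2, fell by 0.60 ± 0.08 in HT29 (-0.20 ± 0.08 in HTOXAR3) and *E2F6*, a repressor, rose by 0.39 ± 0.07 in HTOXAR3.

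Genes of G2 and mitosis fell after OXA alone. Of the 25, 19 (76%) fell after OXA in HT29 and 18 (72%) in HTOXAR3 and 0 rose, with medians of -0.49 and -0.43, where the 40 replication genes had medians of 0.12 and 0.11. After the combination 24 of 25 fell in each line, with medians of -0.71. With Curcumin added to OXA, 2 (8%) fell in HT29 and 13 (52%) in HTOXAR3, with medians of -0.18 and -0.31, beside the 22 (55%) and 15 (37.5%) of the replication genes. The shares over all names are those given above for each comparison, and the difference between these lists was not tested.

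**Figure D5:**
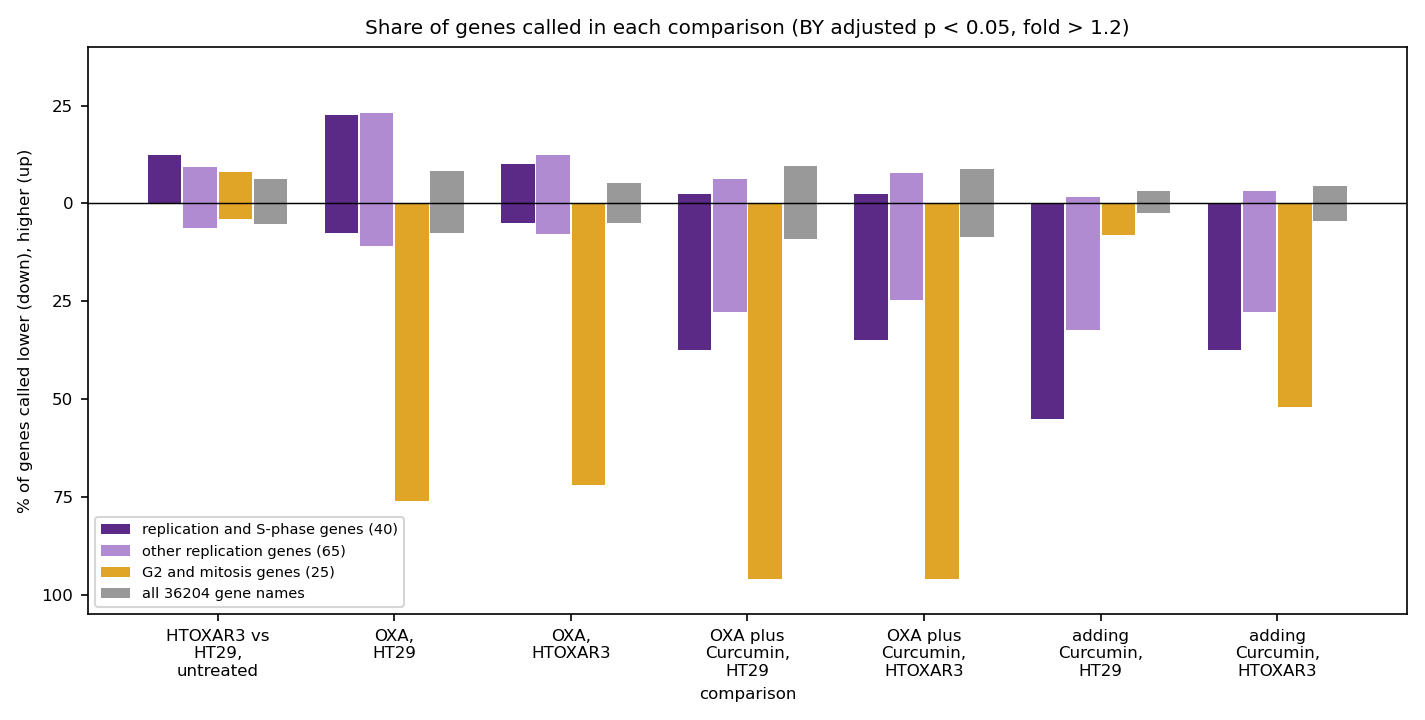
Share of genes called higher (bars up) and lower (bars down) in each of the 7 comparisons, for the 40 replication and S-phase genes, 65 other replication genes, 25 genes of G2 and mitosis and all 36204 gene names. The 40 genes go from 22.5% higher after OXA in HT29 to 55% lower with Curcumin added, while 76% of the G2 and mitosis genes are lower after OXA alone.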

How the data were processed

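Total RNA of the 18 cultures had been labelled with Cy3, hybridised and scanned, and per the file headers the spots were read with Agilent Feature Extraction 10.7.3.1. The authors deposited each spot's mean intensity and the median of its surrounding background, not normalized between arrays, and a processed intensity with the background already subtracted. They also deposited a table of log2 values without gene names, used here for counts only, whose lowest values lie next to the log2 of 50 (the normexp offset is not given in the sources used here), and name limma in their processing notes. Groups and replicate numbers came from the labels.

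The intensity was corrected with normexp (offset 0), control spots were left out, log2 values were quantile normalized, outlier spots were dropped and replicate spots of a probe averaged. Of the probes of a name, the one with the highest mean was used (9 of the 40 genes have several). A model with a term for each of the 6 groups was fitted to all 36204 names in R 4.3.3 with limma 3.58.1; pandas 2.3.3 and matplotlib 3.10.9 (Python 3.11.15) served for counting and plotting. Calls are as defined in the report. The model was tested on simulated data. Every gene is counted; values per array are given for the 2 called genes with the largest rise and the 2 with the largest fall in each comparison, and for *PCNA*, *MCM2* and *E2F1*, with *GINS1* and *RPA1* added after their values were seen. Of the other replication list, genes are named by the same rule, apart from one that is not reported here. The genes, lists and tests were chosen with earlier results of these data known. The number of arrays limits the precision.

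Same-numbered replicates deviated together (every r above 0.1) for OXA in HT29 (0.117 to 0.242) and for adding Curcumin in HTOXAR3 (0.109 to 0.195). The labels describe no pairing, so this is only a hint from the data. These were also the only comparisons in which every same-numbered pair of arrays shared a slide, so pairing and slide cannot be told apart. Alternatives covered the background correction, the scaling, the probe, the filter on dim names, the adjustment, the fold, the groups fitted, slide and replicate blocks, single slides and each array left out.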

Additional observations from a re-analysis of the deposited data

Results flagged for a closer look

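*CHAF1A*, the large subunit of the chromatin assembly factor that works with PCNA, is the only gene of the 40 and the 65 replication genes whose response differed between the lines by the test of the interaction with the BY adjustment. It was at 12.77, 12.66 and 12.56 in untreated HT29 and 11.87, 11.97 and 11.76 after OXA, and at 12.79, 12.93 and 12.80 in untreated HTOXAR3 and 12.79, 12.82 and 12.79 after OXA. The fall was -0.80 ± 0.08 in HT29 and -0.04 ± 0.08 in HTOXAR3, and the difference between the lines was 0.76 ± 0.11 (BY adjusted p = 0.012). The OXA dose differed between the lines, and its part cannot be told apart from that of the line. After OXA plus Curcumin the differences were -0.71 ± 0.08 and -0.27 ± 0.08, whose difference of 0.45 ± 0.11 did not pass with that adjustment (0.403) but did with that of Benjamini-Hochberg (0.0364), as did those of 3 other genes of the 65, *CCNE2* (0.49 ± 0.11), *RNASEH2A* (-0.37 ± 0.10) and *RNASEH2C* (-0.50 ± 0.09), chosen here after their values were seen.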

How the results depend on the processing

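The 91 calls of the 40 genes kept their direction in 1637 of 1638 values under the alternatives. The exception was *RPA1* after OXA in HTOXAR3, at -0.34 with the mean of all probes. Part of this agreement was fixed in advance. Another adjustment or fold minimum, the filter on dim names, fitting only the groups compared and the replicate block leave the differences as they are. The mean of all probes changes nothing for a gene with a single probe. Of the 91 calls, 81 were kept under every other background correction, scaling, probe, filter and block, and 65 with each array left out in turn. With each array left out, the count of called genes ranged from 3 to 4 between untreated lines (5 with all arrays), from 7 to 10 after OXA in HT29 (12, with 7 without untreated HT29 replicate 2), from 5 to 6 after OXA in HTOXAR3 (6), from 14 to 16 and from 13 to 15 after the combination in HT29 and HTOXAR3 (16 and 15), and from 14 to 19 and from 9 to 12 with Curcumin added (22 and 15). Interactions gave 0 calls under each alternative. When only the groups compared were fitted, the counts in the same order were 0, 2, 1, 3, 7, 0 and 0. Over all names they were then 1258, 1338, 592, 2056, 3013, 16 and 223. Fewer arrays estimate the spread in these fits, and the part of this in the lower counts was not tested. With a fold of at least 2 the counts of the 40 genes were 0, 0, 0, 1, 1, 0 and 0. For OXA in HTOXAR3 the count was 11 with the Benjamini-Hochberg adjustment, 10 with a normexp offset of 50 (5 higher and 5 lower), 10 with the processed intensity scaled to the 75th percentile and 11 with dim names left out; for Curcumin added in HTOXAR3 it was 23 with the Benjamini-Hochberg adjustment. The cause was not tested. Scaling the processed intensity to the 75th percentile moved the median of all names to -0.10, -0.19, -0.15 and -0.18 for OXA in HT29 and HTOXAR3 and the combination in HT29 and HTOXAR3, in that order. Relative to it, the medians of the 40 genes were 0.19, 0.28, -0.19 and -0.02, so that the combination in HTOXAR3 no longer set the 40 genes below all names, though 13 of them were still called lower and 1 higher. With normexp values scaled in that way they were 0.18, 0.12, -0.16 and -0.02. For Curcumin added, the relative medians in HT29 and HTOXAR3 were -0.40 and -0.38 under the first scaling and -0.33 and -0.15 under the second (-0.36 and -0.26 with quantile normalization). With a replicate block the counts were 5, 12, 7, 18, 14, 21 and 15. The 12 and the 15 are of the comparisons where same-numbered replicates deviated together. *GINS3* lost its call in each of these, and other genes took its place. The table of log2 values gave 565 and 146 called names for the interactions with the combination and with Curcumin added, against 310 and 49.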

Other observations

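Other probes exist for 9 of the 40 genes, 11 in all. Where the probe used was called, the other probe had the same sign in 17 of 18 values, *RPA1* being the exception. After the combination, the other probe of *RPA1* fell by 1.03 in HT29 (BY adjusted p = 1.8e-05) and by 0.97 in HTOXAR3 (3.6e-05, limma fitted to all probes), where the probe used stood at 0.14 and 0.10. Some other probes passed where the probe used was not called, with the same sign: that of *MCM5* between untreated lines, at 0.34, and after OXA, at -0.34 and -0.45 in HT29 and HTOXAR3, that of *POLE* after OXA in HT29, at 0.52, and 1 of *PRIM2* after OXA in HTOXAR3, at 0.55. The second probe of *MCM7* stood at -0.12 and -0.18 after OXA in HT29 and HTOXAR3, where the probe used stood at 0.21 and 0.02. For *POLE*, the catalytic subunit of polymerase epsilon, the other probe was at 0.32 after the combination in HT29 and the probe used at -0.04. *PRIM2*, the regulatory primase subunit, has 3 probes, of which another stood at 0.44 after the combination in HTOXAR3 without passing, where the probe used was at -0.05.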
